A study of Mus musculus with 12 samples.

Results

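The expression of tight junction genes was followed in the cochlea of wild-type and *Gjb2* 35delG homozygous mice. The 10 genes were 6 claudins (*Cldn3*, *Cldn4*, *Cldn6*, *Cldn9*, *Cldn11* and *Cldn14*), the tricellular junction genes *Marveld2* and *Ildr1*, and *Ocln* and *Tjp1*. They were taken by name from the deposited expression table, where they are 10 of 37432 genes. All 10 were among the 16215 genes tested, which reached 1 FPKM in at least 2 libraries. FPKM are fragments scaled to transcript length and to the mapped fragments of the library, so levels of different genes can be set side by side. RNA was sequenced from males at P14 of 2 genotypes, the wild-type and the *Gjb2* 35delG/35delG homozygote that lacks 1 base of the connexin gene on both alleles. Cochleae were cut into apical, middle and basal turns, giving 6 groups with 2 biological repeats in each and 12 libraries in all. The homozygous males came from male embryonic stem cells through tetraploid complementation, had an almost pure C57BL/6J background, were born by cesarean section and were raised by ICR foster mothers. Wild-type males of that age were bought, so that the genotype and the origin of the animals cannot be told apart, and how many mice stand behind a library is not given in the sources used here.

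Tight junctions seal the spaces between epithelial cells. In the cochlea they keep the potassium-rich endolymph, which bathes the hair bundles, apart from the perilymph and from the tissue of the lateral wall. Claudins are the membrane proteins that form the sealing strands, and each epithelium uses its own mixture of them. Where the corners of neighbouring cells meet, the strands are closed by tricellulin, the product of *Marveld2*, which is brought there by angulins such as the product of *Ildr1*. Occludin, the product of *Ocln*, lies along the strands between cell pairs, and *Tjp1* encodes a zonula occludens scaffold that links the strands to actin. Mutations of CLDN14, CLDN9, MARVELD2 and ILDR1 cause deafness in humans, and mice without *Cldn11* lose the endocochlear potential.

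On the mm10 (GRCm38) assembly the genes formed several close pairs. *Cldn6* and *Cldn9* lie tail to tail on chromosome 17 with 137 bases and no other gene between them. *Cldn4* and *Cldn3* lie on chromosome 5 with 39.3 kb and no gene between them, and *Ocln* and *Marveld2* lie on chromosome 13 with 43.2 kb and 2 predicted genes between them. *Cldn9*, *Cldn4* and *Cldn3* are annotated with a single exon. *Cldn11* is on chromosome 3, *Cldn14* and *Ildr1* are on chromosome 16 and *Tjp1* is on chromosome 7. Over 40 bases *Cldn3* overlaps the antisense gene *Wbscr25*, and since the strand setting of the counting is not given, reads of the overlap cannot be assigned to either gene. The promoters of *Ildr1*, *Cldn3* and *Cldn4* are shown here because *Ildr1* was the gene called in the basal turn and because *Cldn3* and *Cldn4* are neighbours whose ratio is described further on. Each is the 250 bases before the annotated start from RefSeq (GRCm38.p6), read 5′ to 3′ on the strand of the gene, with matches to the searched motifs in capitals.
Ildr1 promoter: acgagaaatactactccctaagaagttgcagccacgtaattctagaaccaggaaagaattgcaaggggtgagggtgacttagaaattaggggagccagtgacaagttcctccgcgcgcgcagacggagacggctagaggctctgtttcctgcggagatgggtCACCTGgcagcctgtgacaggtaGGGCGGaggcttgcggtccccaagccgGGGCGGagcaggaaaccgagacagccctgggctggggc
Cldn3 promoter: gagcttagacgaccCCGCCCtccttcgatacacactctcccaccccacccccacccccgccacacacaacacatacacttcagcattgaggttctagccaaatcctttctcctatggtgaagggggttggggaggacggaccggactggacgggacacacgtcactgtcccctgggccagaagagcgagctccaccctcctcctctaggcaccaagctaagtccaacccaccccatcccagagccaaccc
Cldn4 promoter: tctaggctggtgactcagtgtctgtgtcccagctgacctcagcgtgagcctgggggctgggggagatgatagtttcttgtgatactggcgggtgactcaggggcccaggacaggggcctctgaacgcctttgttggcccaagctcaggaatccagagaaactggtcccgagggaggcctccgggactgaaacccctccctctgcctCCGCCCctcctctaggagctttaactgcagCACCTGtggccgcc
These windows are chr16:36693728-36693977 on the plus strand, chr5:134985964-134986213 on the plus strand and chr5:134946935-134947184 on the minus strand. The *Ildr1* window holds CAGGTG, as its reverse complement, 88 bases before the start and GGGCGG 65 and 38 bases before it. In the *Cldn4* window CAGGTG begins 14 bases and GGGCGG 44 bases before the start, both as reverse complements, and the *Cldn3* window holds only GGGCGG, also as its reverse complement, 236 bases before the start. The 4 motifs searched on both strands were CAGGTG (the E box bound by Snail factors), GGGCGG (the GC box), TATAAA (the TATA box) and AACCNGTT (the site of grainyhead-like factors), and no match overlapped another. RefSeq entries were found for 9 of the 10 genes, with 13 start sites, some of which share bases. CAGGTG was in 5 of these 13 windows (38.5%), against 17.2% of all 32851 promoters of the same length. GGGCGG was in 9 (69.2%) against 32.7%, TATAAA in 2 (15.4%, both of *Marveld2*) against 12.4%, and AACCNGTT in 0 against 1.79%. The 2 windows of *Marveld2* overlap and hold the same TATAAA and the same GGGCGG. By gene, GGGCGG was in 7 of 9 and TATAAA in 1 of 9. These are matches of letters only. The 13 windows held 47.6% to 69.2% G and C, against a mean of 53.2% for all promoters.

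Markers of several cell types differed between libraries of 1 group, and their part in the results was not tested. Some strial markers (*Dct*, *Kcne1*, *Bsnd* and *Tyr*) were low or near 0 in the wild-type libraries other than basal 2. Others were not, such as *Lrp2* at 63 to 122 scaled FPKM in the same 5. *Dct*, a melanocyte enzyme, was at 442 in wild-type basal 2 and at 1.03 to 5.59 scaled FPKM in the other 5. In the homozygous libraries it was at 157.6 to 586, except basal 2, where it was at 0.0646. *Mobp*, a myelin gene of oligodendrocytes, was at 639.7 in wild-type middle 1, 175 in wild-type basal 2 and 192 and 266 in the homozygous basal libraries, and at most 7.73 in the other 8. *Epcam*, which marks epithelial cells, was at 20.4 and 1.65 in the homozygous basal libraries and at 51.8 to 187 in the other 10. For 6 of the 12 libraries the most similar library was the repeat of the same group, and both wild-type basal libraries were nearest to a homozygous middle library. *Gjb2* itself was at 139.7 to 434 scaled FPKM in wild-type and at 58.6 to 451 in homozygous libraries. These ranges overlapped, and an FPKM value cannot show whether 1 base is deleted, so it does not check the genotype. The depth of the libraries is unknown, because FPKM carry no counts, and a value of 0 is reported only as listed at 0.

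At P14, *Cldn9*, *Cldn11* and *Tjp1* had the highest means of the 10 genes in 5 of the 6 groups, and in the homozygous basal group *Ocln* was level with *Cldn9*. In wild-type apical libraries *Cldn9* led with a mean of 124 ± 0.287 scaled FPKM (SD, n = 2), followed by *Tjp1* (87.2 ± 16.2) and *Cldn11* (87.2 ± 25.0), whose libraries overlapped. In each of the other 5 groups *Cldn11* was the highest, with means of 316 to 329 scaled FPKM. *Cldn6* was the lowest in 4 of the 6 groups, and *Marveld2* in the homozygous apical and middle groups, where its libraries overlapped with those of *Cldn6*. The homozygous basal group stood apart from all others. It had the lowest mean for 8 of the 10 genes, and for all 8 both of its libraries were below each of the other 10. The exceptions were *Cldn11* and *Tjp1*. For *Cldn11* the wild-type apical group was lowest and did not overlap with the next, and for *Tjp1* the same group was highest and did not overlap with the next. Between these ends, most neighbours in the order overlapped. For *Cldn9* the order of means was wild-type apical, wild-type basal, homozygous apical, homozygous middle, wild-type middle and homozygous basal. For *Ildr1* it was wild-type apical, homozygous apical, homozygous middle, wild-type basal, wild-type middle and homozygous basal, and the homozygous basal libraries were the only ones below those of the wild-type middle group. In a bulk sample, fewer cells of a type and less RNA per cell cannot be told apart.

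**Figure D1:**
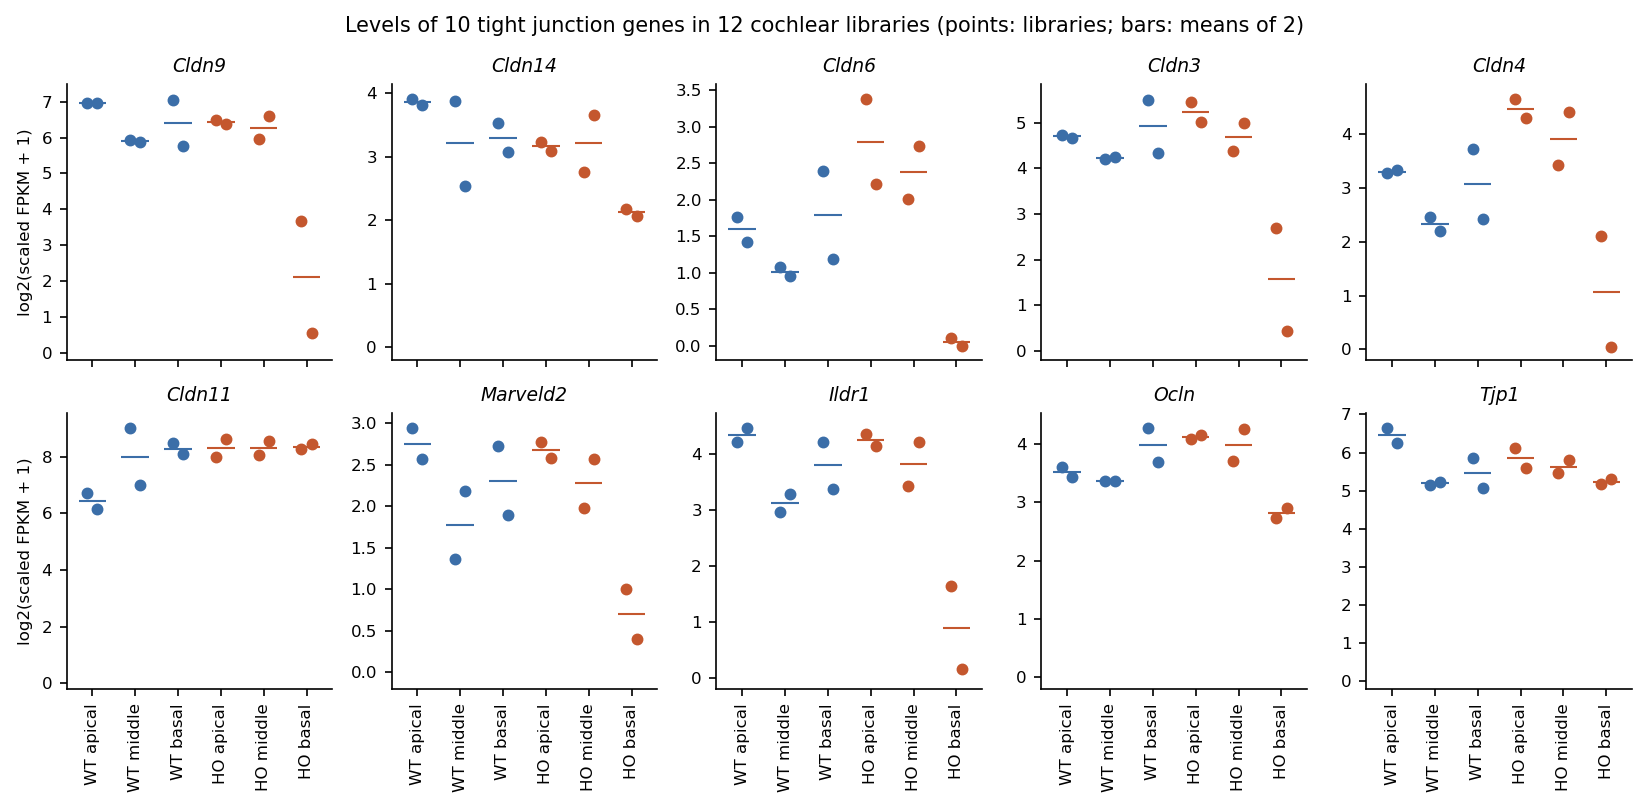
Level of each of the 10 genes on the log2(scaled FPKM + 1) scale (vertical axis, 1 scale per panel) in the 6 groups of wild-type (WT, blue) and homozygous (HO, orange) turns; points are the 2 libraries of a group and bars their mean. In 8 panels both homozygous basal libraries lie below all other libraries, while *Cldn11* and *Tjp1* do not show this.

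*Cldn9* and *Cldn14* encode claudins of the sensory epithelium that hair cells depend on. *Cldn9* was at 124 and 124 scaled FPKM in the wild-type apical libraries, 60.6 and 58.2 in the wild-type middle libraries and 132 and 53.7 in the wild-type basal libraries. In homozygous mice it was at 88.8 and 81.9 in apical, 61.3 and 95.4 in middle and 11.7 and 0.465 in basal libraries. Both homozygous basal libraries lay far below the other 10, which reached from 53.7 to 132. The wild-type basal libraries themselves stood far apart. Between genotypes, the log2 difference of *Cldn9* in the basal turn was -4.31 (SE 0.83, adjusted p = 0.0112), with both homozygous libraries lower, and so did not pass the adjusted threshold of 0.01. In the apical turn it was -0.53 (95% interval -2.41 to 1.34) and in the middle turn 0.36 (-1.52 to 2.24). These and all following differences are homozygous minus wild-type on the log2(scaled FPKM + 1) scale, tested with limma across all genes with Benjamini-Hochberg adjustment.

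In wild-type mice the level of *Cldn14* was 13.9 and 12.98 scaled FPKM in the apical, 13.7 and 4.83 in the middle and 10.5 and 7.38 in the basal libraries. The homozygous libraries were at 8.36 and 7.53 in the apical, 5.79 and 11.6 in the middle and 3.54 and 3.19 in the basal turn. Its 2 homozygous basal libraries were below all others, and in the apical turn both homozygous libraries were below both wild-type ones. None of these differences passed the test. The log2 difference was -1.17 (SE 0.42, adjusted p = 0.0866) in the basal turn and -0.69 (SE 0.42, adjusted p = 0.457) in the apical turn. Both homozygous middle libraries lay between the wild-type middle ones, and the difference there was 0.0015 with a 95% interval of -0.95 to 0.95.

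*Cldn3* and *Cldn4* are sealing claudins of many epithelia, and *Cldn6* is best known from embryonic epithelia. The wild-type apical libraries held 25.5 and 24.3 scaled FPKM of *Cldn3*, the middle ones 17.4 and 17.9 and the basal ones 44.3 and 19.1. Its level in homozygotes was 42.5 and 31.4 for the apical, 19.9 and 30.6 for the middle and 5.49 and 0.364 for the basal libraries. The homozygous apical group had the highest mean and overlapped with the wild-type basal group, and the homozygous basal libraries were below all others. Its log2 difference in the basal turn was -3.34 (SE 0.64, adjusted p = 0.0111), and in the apical and middle turns it was 0.53 and 0.46 with adjusted p of 0.739 and 0.695.

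*Cldn4* was at 8.67 and 9.06 scaled FPKM in the wild-type apical libraries, 4.51 and 3.62 in the wild-type middle libraries and 12.3 and 4.36 in the wild-type basal libraries. In homozygous mice it was at 23.96 and 18.7 in apical, 9.73 and 20.1 in middle and 3.33 and 0.0259 in basal libraries. In the apical and the middle turn both homozygous libraries were above both wild-type libraries, and in the basal turn both were below. The log2 differences of *Cldn4* were 1.17 (SE 0.65, adjusted p = 0.416) for the apical, 1.58 (SE 0.65, adjusted p = 0.172) for the middle and -2.00 (SE 0.65, adjusted p = 0.0648) for the basal turn, and none passed the test. In wild-type mice the level of *Cldn6* was 2.404 and 1.69 scaled FPKM in the apical, 1.11 and 0.936 in the middle and 4.26 and 1.27 in the basal libraries. The homozygous libraries were at 9.398 and 3.66 in the apical, 3.04 and 5.66 in the middle and 0.0716 and 0 in the basal turn. As for *Cldn4*, the homozygous apical and middle groups had the highest means, and both homozygous basal libraries were below all others, with *Cldn6* listed at 0 in basal 2. Its log2 differences were 1.20 (SE 0.47, adjusted p = 0.251), 1.36 (SE 0.47, adjusted p = 0.117) and -1.74 (SE 0.47, adjusted p = 0.0347) from the apical to the basal turn. None passed the test, and because the level of *Cldn6* is close to the pseudocount of 1, its difference on this scale understates the ratio of the levels.

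Within a library, the balance between neighbouring claudins differed between the wild-type and the homozygous apical and middle libraries. These ratios were chosen after the values were seen and are given with no test. The ratio of *Cldn9* to *Cldn6* was 30.97 to 73.4 in the 6 wild-type libraries and 9.45 to 22.4 in the 4 homozygous apical and middle libraries. The ranges did not overlap, but *Cldn6* was at only 0.936 to 4.26 scaled FPKM in the wild-type libraries. The share over other pairs of genes was not computed. In homozygous basal 1 the ratio was 163, above all wild-type libraries, with *Cldn6* at 0.0716. The ratio of *Cldn3* to *Cldn4* was 2.68 to 4.95 in wild-type libraries and 1.52 to 2.04 in the same homozygous libraries, again without overlap. In homozygous basal 1 it was 1.65. In homozygous basal 2, where both genes were near 0, it was 14.03, above all wild-type libraries. For the third pair the genotypes overlapped, and the ratio of *Ocln* to *Marveld2* ran from 1.66 to 5.94 in wild-type libraries and from 2.75 to 4.12 in the homozygous apical and middle ones.

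**Figure D2:**
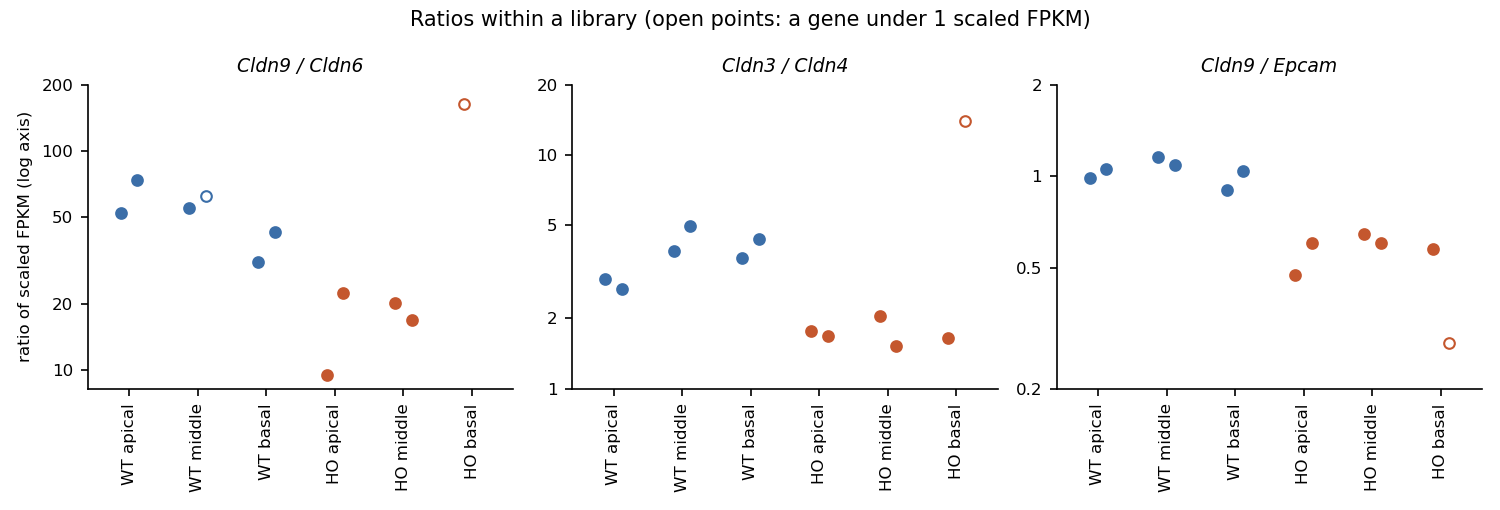
Ratio of scaled FPKM within each library (vertical log axis) for *Cldn9* over *Cldn6*, *Cldn3* over *Cldn4* and *Cldn9* over *Epcam* in the 6 groups, with wild-type in blue and homozygous in orange and open points where a gene is under 1 scaled FPKM. The *Cldn9* over *Cldn6* ratio of homozygous basal 2 is not drawn because *Cldn6* is listed at 0; the wild-type points lie above the homozygous apical and middle points in all panels.

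Of the tricellular genes, *Ildr1* was the only one of the 10 genes that fell in the homozygous basal turn at the thresholds used, a fold over 2 with an adjusted p under 0.01. The wild-type apical libraries held 17.7 and 21.2 scaled FPKM of *Ildr1*, the middle ones 6.77 and 8.73 and the basal ones 17.7 and 9.45. Its level in homozygotes was 19.5 and 16.7 for the apical, 9.82 and 17.6 for the middle and 2.12 and 0.109 for the basal libraries. Both homozygous basal libraries were below every other library. The log2 difference in the basal turn was -2.91 (SE 0.48, adjusted p = 0.00771). In the apical and middle turns it was -0.10 (95% interval -1.18 to 0.98) and 0.71 (-0.38 to 1.79). The fall in the basal turn passed the threshold only narrowly. Leaving out any of 10 of the 12 libraries took the adjusted p above 0.01 (0.0110 to 0.0392), and it stayed under it without wild-type basal 2 or homozygous basal 1. Fitted on the 4 basal libraries alone it was 0.149, and without wild-type middle 1 and homozygous basal 2, a setting chosen after seeing the data, the difference was -2.16 with an adjusted p of 0.0341.

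*Marveld2* was at 6.702 and 4.91 scaled FPKM in the wild-type apical libraries, 1.57 and 3.55 in the wild-type middle libraries and 5.59 and 2.703 in the wild-type basal libraries. In homozygous mice it was at 5.84 and 4.99 in apical, 2.93 and 4.94 in middle and 1.004 and 0.317 in basal libraries. *Marveld2* was below *Ildr1* in every library except homozygous basal 2, where *Ildr1* was at 0.109. In the basal turn both homozygous libraries were below both wild-type ones, and the log2 difference of -1.60 (SE 0.39, adjusted p = 0.0234) did not pass the test. In the apical turn it was -0.08 (95% interval -0.95 to 0.80), and in the middle turn 0.50 (-0.37 to 1.37).

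In wild-type mice the level of *Ocln* was 11.1 and 9.79 scaled FPKM in the apical, 9.32 and 9.31 in the middle and 18.4 and 12.01 in the basal libraries. The homozygous libraries were at 16.1 and 16.9 in the apical, 12.1 and 18.2 in the middle and 5.68 and 6.51 in the basal turn. *Ocln* kept a level of several FPKM in the homozygous basal libraries, unlike *Cldn9* and *Ildr1* in basal 2. In the apical and middle turns both homozygous libraries were above both wild-type ones, with log2 differences of 0.61 (SE 0.23, adjusted p = 0.238) and 0.62 (SE 0.23, adjusted p = 0.139). In the basal turn both were below, with -1.17 (SE 0.23, adjusted p = 0.0120). None of the 3 passed the adjusted threshold.

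The wild-type apical libraries held 98.7 and 75.7 scaled FPKM of *Tjp1*, the middle ones 34.7 and 36.7 and the basal ones 56.5 and 32.7. Its level in homozygotes was 69.00 and 47.2 for the apical, 42.8 and 54.8 for the middle and 34.99 and 38.3 for the basal libraries. The scaffold gene *Tjp1* was highest in the wild-type apical libraries and did not separate the genotypes in the basal turn, where the homozygous libraries lay between the wild-type ones. The log2 difference there was -0.23 with a 95% interval of -0.87 to 0.42. In the apical turn both homozygous libraries were lower, with -0.59 (SE 0.28, adjusted p = 0.346), and in the middle turn both were higher, with 0.43 (SE 0.28, adjusted p = 0.379). Neither difference passed the test.

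*Cldn11* forms the tight junctions of strial basal cells and also those of myelin in the central nervous system. *Cldn11* was at 105 and 69.5 scaled FPKM in the wild-type apical libraries, 515 and 126 in the wild-type middle libraries and 359 and 273 in the wild-type basal libraries. In homozygous mice it was at 253 and 397 in apical, 267 and 374 in middle and 309 and 349.6 in basal libraries. The wild-type apical libraries were below all others, and the rest spread from 126 to 515. The wild-type middle libraries held both the lowest and the highest of these 10 values. In the apical turn both homozygous libraries were higher, with a log2 difference of 1.88 (SE 0.57, adjusted p = 0.165), which did not pass the test. In the middle and basal turns the differences were 0.31 (95% interval -0.996 to 1.61) and 0.07 (-1.23 to 1.37). Without wild-type middle 2 the sign in the middle turn turned, to -0.71, and without wild-type basal 2 that in the basal turn, to -0.13.

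Markers of myelin and of strial cells were high beside *Cldn11* in some libraries and not in others, and their part in its level was not tested. Wild-type middle 1 held both the highest *Cldn11* and the highest *Mobp* (515 and 639.7 scaled FPKM). In wild-type basal 1, however, *Cldn11* was at 359 while *Mobp* was at 1.16, *Dct* at 1.03 and *Kcne1*, the potassium channel subunit of marginal cells, was listed at 0. In homozygous basal 2 *Cldn11* was at 349.6 with *Mobp* at 266 and *Dct* at 0.0646. Over the whole lists, the 13 oligodendrocyte markers summed to 885 and 869 scaled FPKM in the wild-type apical and 390.2 and 698 in the homozygous apical libraries. The 9 marginal cell markers summed to 255 and 260.2 in wild-type against 507 and 1138 in homozygous apical libraries. The list of strial basal cells held 2 genes beyond the 10 (*Nr2f2* and *Sox8*). They summed to 62.5 and 51.9 in wild-type against 40.95 and 33.8 in homozygous apical libraries. The sum was opposite in direction to *Cldn11*, but 1 of the 2 genes was higher and 1 lower, with a median log2 difference of 0.095. The 10 intermediate cell and melanocyte markers summed to 129.6 and 128 against 444 and 1057. *Bsnd* and *Tyr*, both of strial cells, were under 0.1 scaled FPKM in both wild-type apical libraries. In the homozygous ones *Bsnd* was at 4.74 and 9.79 and *Tyr* at 7.303 and 17.3.

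**Figure D3:**
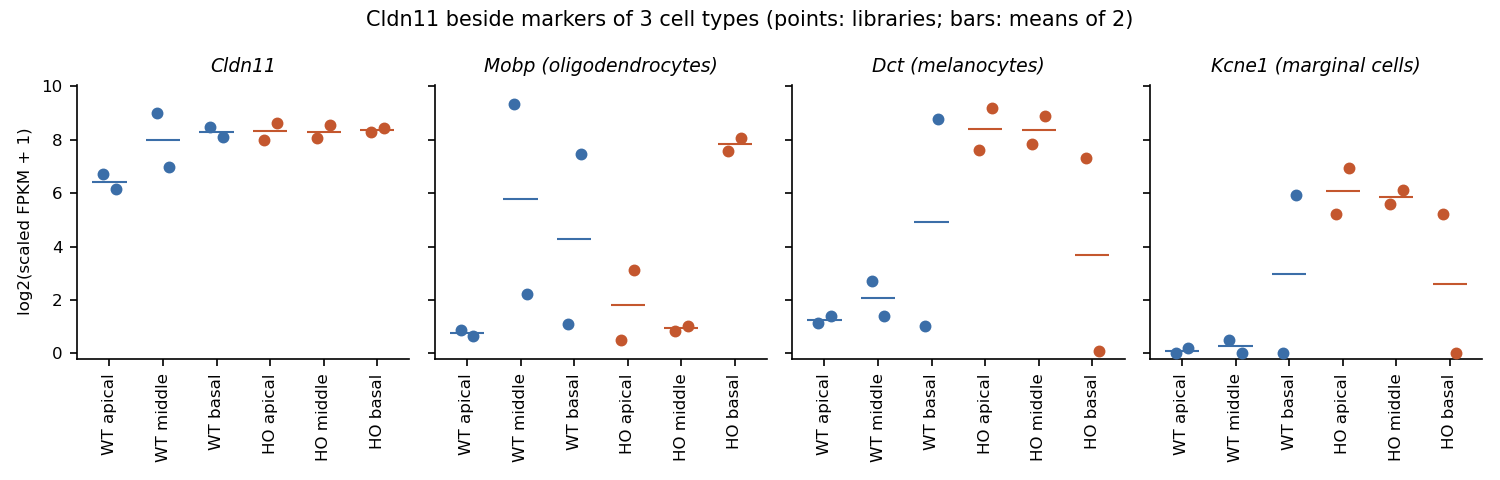
Level of *Cldn11* beside *Mobp*, *Dct* and *Kcne1* on a common log2(scaled FPKM + 1) axis in the 6 groups; points are the 2 libraries of a group and bars their mean. *Cldn11* is high in most libraries, among them wild-type basal 1. There *Mobp* and *Dct* are at 1.16 and 1.03 scaled FPKM and *Kcne1* is listed at 0.

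Counted by turn, the 10 genes gave few calls. In the apical turn 0 of 10 passed the limma test, against a background of 0.179% of all genes tested, and 3 (*Cldn11*, *Cldn6* and *Ocln*) were higher at an unadjusted p under 0.05 (background 7.39%). In the middle turn 0 of 10 passed (background 0.179%), and 3 (*Cldn6*, *Cldn4* and *Ocln*) were higher at an unadjusted p under 0.05 (background 12.9%). In the basal turn 1 of 10, *Ildr1*, passed (background 4.29% in both directions and 1.76% lower), and 8 of 10 were lower at an unadjusted p under 0.05 (background 16%). At an adjusted p under 0.05 the basal turn gave 6 (*Cldn9*, *Cldn6*, *Cldn3*, *Marveld2*, *Ildr1* and *Ocln*), all lower, against 5.27% of all genes. Averaged over the turns, 0 of 10 passed (background 0.376%) and 4 had an unadjusted p under 0.05 (background 18.6%), *Cldn11* higher and *Cldn14*, *Cldn9* and *Ildr1* lower.

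The direction of the group changed from turn to turn. Both homozygous libraries were above both wild-type ones for 5 of the 10 genes in the apical turn (background 26.9% of all genes) and below them for 3 (32.1%). In the middle turn they were above for 7 (31.3%) and below for 0 (28.2%). In the basal turn they were below for 8 (27.8%) and above for 0 (26.2%). The median log2 difference of the 10 genes was 0.23, 0.48 and -1.67 in the apical, middle and basal turn, whereas the median of all genes was -0.0264, 0.0388 and -0.0206.

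**Figure D4:**
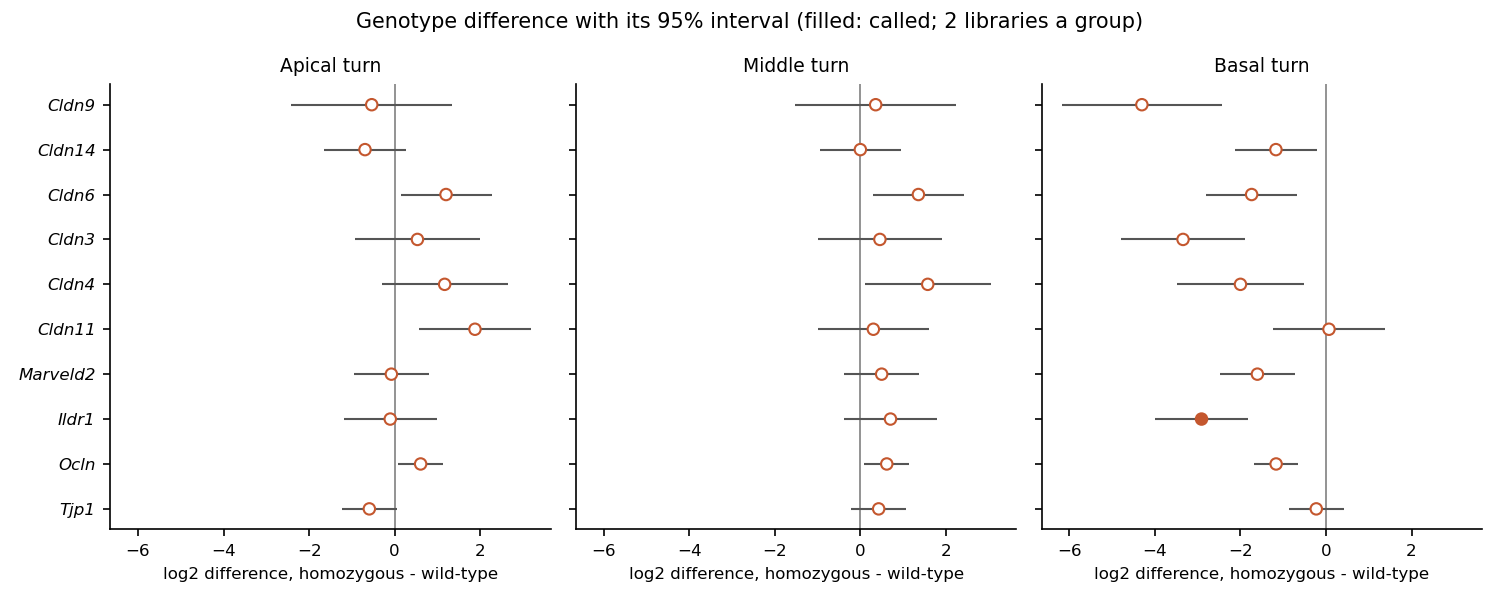
Homozygous minus wild-type difference of each gene on the log2(scaled FPKM + 1) scale (horizontal axis) by turn, shown with its 95% interval; a filled point marks the 1 call, *Ildr1* in the basal turn. Most points lie right of 0 in the middle turn and left of it in the basal turn.

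The difference between turns was tested as an interaction. Comparing the basal with the middle turn, the change in the genotype effect was -3.62 (SE 0.67, adjusted p = 0.00708) for *Ildr1* and -1.79 (SE 0.32, adjusted p = 0.00642) for *Ocln*, and these 2 of 10 were called (background 8.91%, 2.58% lower). All 10 differences were negative, with a median of -2.60 against -0.121 for all genes. Comparing the basal with the apical turn, 0 of 10 were called by limma (background 0.796%) and 7 were lower at an unadjusted p under 0.05 (background 13.3%), among them *Ocln* with -1.77 (SE 0.32, adjusted p = 0.0144). Comparing the middle with the apical turn, 0 of 10 and 0 genes in all were called by limma, and *Tjp1* was the only 1 of the 10 at an unadjusted p under 0.05 (background 8.05%). With only the libraries of the compared groups in the fit, or with wild-type middle 1 and homozygous basal 2 left out, 0 of 10 were called in the basal turn and between the basal and middle turns. The interaction count of 2 was 0 without any 1 of 9 libraries, 1 without homozygous middle 1, 3 without wild-type basal 2 and 4 without homozygous basal 1.

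Along the cochlea of wild-type mice, no gene of the 10 passed the limma test between turns (0 of 10 in each of the 3 comparisons, background 0.0863% for basal against apical, 0.0863% for middle against apical and 0% for basal against middle). At an unadjusted p under 0.05, *Cldn11* was higher and *Tjp1* lower in the basal than in the apical turn, with log2 differences of 1.86 (SE 0.57, adjusted p = 0.143) and -0.99 (SE 0.28, adjusted p = 0.126) (background 20.3% at that level). The middle turn had higher *Cldn11* and lower *Marveld2*, *Ildr1* and *Tjp1* than the apical turn at that level, with *Tjp1* at -1.25 (SE 0.28, adjusted p = 0.0943) and a background of 19.9%. Between the basal and middle turns only *Ocln* reached it, with 0.62 (SE 0.23, adjusted p = 0.241) and a background of 15.2%. In homozygous mice, *Cldn6*, *Cldn3*, *Ildr1* and *Ocln* fell from the apical to the basal turn (4 of 10, background 4.06%, 2.16% lower). Their log2 differences were -2.75 (SE 0.47, adjusted p = 0.00819), -3.66 (SE 0.64, adjusted p = 0.00895), -3.35 (SE 0.48, adjusted p = 0.00570) and -1.30 (SE 0.23, adjusted p = 0.00912). *Ildr1* also fell from the middle to the basal turn, with a log2 difference of -2.93 (SE 0.48, adjusted p = 0.00683), as 1 of 10 (background 4.66%). Between the homozygous middle and apical turns 0 of 10 were called by limma (background 0%), and 0 had an unadjusted p under 0.05 (background 2.65%). The calls of the homozygous basal turn were lost (0 of 10 against the apical and 0 of 10 against the middle turn) with only the compared libraries in the fit, and without homozygous basal 2. They were also lost without any 1 of the wild-type apical, wild-type middle or homozygous apical libraries. Without either homozygous middle library they were 1 and 0 of 10, without homozygous basal 1 they were 4 (*Cldn9*, *Cldn4*, *Cldn3* and *Ildr1*) and 3, and without either wild-type basal library they were 7 and 5. The calls over all genes moved as well. Against the apical turn, 659 calls became 301 without homozygous basal 1 and 1516 and 1537 without wild-type basal 1 and 2, and against the middle turn 756 became 190, 1545 and 1561.

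Markers of several cell types, among them epithelial cells, hair cells, supporting cells and fibrocytes, were mostly lower in the homozygous basal turn like the junction genes, and their part in these differences was not tested. Of all genes tested, 4.29% were called in the basal turn, 1.76% as lower. An unadjusted p under 0.05 by limma was reached there by 5249 of the 16215 genes, of which 2588 were lower. Of 10 epithelial markers, 10 were lower in the homozygous basal turn and 2 were called (*Krt19* and *Grhl2*). Their summed level was 336 and 180.2 scaled FPKM in wild-type basal and 93.3 and 47.5 in homozygous basal libraries, and *Grhl2*, *Esrp2*, *Krt7* and *Krt8* were under 0.1 in homozygous basal 2, where *Cdh1* alone, at 40.4, made up most of the sum. Of 16 hair cell markers, 14 were lower and 4 were called (*Pou4f3*, *Gfi1*, *Otof* and *Espn*). In the apical turn 16 of 16 were lower and 0 were called by limma. Of these 16, 8 had an unadjusted p under 0.05, as had 2663 of all 16215 genes. The middle turn went the other way, with 14 of 16 higher and 1, *Slc26a5*, called (background 0.179%). The sum of this list was not lower, at 223 and 406 in wild-type basal against 364 and 895 in homozygous basal libraries, of which *Pvalb* made up 35.3 and 250.01 against 322 and 848. *Otof*, the otoferlin of hair cell synapses, was at 32.2 and 20.7 in wild-type basal and 0.0982 and 0.109 in homozygous basal libraries. Of 12 supporting cell markers tested, 9 were lower and 2 were called (*S100a1* and *Otoa*), and the 13 genes of the list summed to 2398 and 1771 against 653 and 482. Of 8 fibrocyte markers of the spiral ligament 7 were lower, with sums of 7187 and 6854 against 3039.6 and 565. By limma 0 were called, and 4 were lower and 1 higher at an unadjusted p under 0.05. Of 7 erythroid markers 7 were lower, with sums of 3179.5 and 4993 against 436 and 524, and 0 were called by limma (5 at an unadjusted p under 0.05). Of the strial lists, 7 of 9 marginal and 8 of 9 tested intermediate cell and melanocyte markers were lower, and *Met* of the second was called. In the opposite direction, 13 of 13 neuron markers were higher in the homozygous basal turn, with sums of 4104 and 4139.8 against 46.7 and 985. In the middle turn 9 of 10 epithelial markers were higher in homozygotes and 0 were called, with sums of 244 and 371 against 132 and 143.

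Relative to *Epcam* in the same library, the genes behaved differently from each other. The ratio to *Epcam* was chosen after the values were seen and has no test. *Cldn9* stood at 0.902 to 1.16 times *Epcam* in the 6 wild-type libraries and at 0.282 to 0.644 times in the 6 homozygous libraries, so that the genotypes did not overlap. It was the only 1 of the 10 genes for which this held, and the share over all genes was not computed. The value of 0.282 was that of homozygous basal 2, where both genes were low (*Cldn9* at 0.465 and *Epcam* at 1.65 scaled FPKM). *Cldn4* stood at 0.0675 to 0.0862 times *Epcam* in wild-type and at 0.102 to 0.138 times in the homozygous apical and middle libraries, in the other direction. In the homozygous basal libraries it stood at 0.164 and 0.0158 times, above and below the wild-type range. The second of these rests on *Cldn4* at 0.0259 scaled FPKM. For *Cldn3* (0.203 to 0.369 and 0.193 to 0.2697 times) the ranges of the genotypes overlapped, homozygous basal libraries included. *Ildr1* was at 0.121 to 0.183 times *Epcam* in wild-type and at 0.0664 to 0.122 times in homozygous libraries, and these ranges overlapped slightly. Its lowest ratio was also in homozygous basal 2, with *Ildr1* at 0.109 scaled FPKM. For *Cldn6*, *Cldn11*, *Cldn14*, *Marveld2*, *Ocln* and *Tjp1* the ranges of the genotypes overlapped as well. Over the 12 libraries, which share the low homozygous basal turn, Pearson's r of log2(scaled FPKM + 1) with *Epcam* was 0.984 for *Cldn3*, 0.978 for *Ildr1*, 0.970 for *Cldn9*, 0.947 for *Cldn4*, 0.925 for *Marveld2*, 0.844 for *Cldn6*, 0.790 for *Ocln*, 0.718 for *Cldn14*, 0.556 for *Tjp1* and -0.208 for *Cldn11*. Over the 10 libraries without that turn it ran from -0.00888 for *Cldn11* and 0.299 for *Cldn14* to 0.9403 for *Cldn4*, and was 0.882 for *Cldn3*, 0.903 for *Ildr1* and 0.764 for *Cldn9*.

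**Figure D5:**
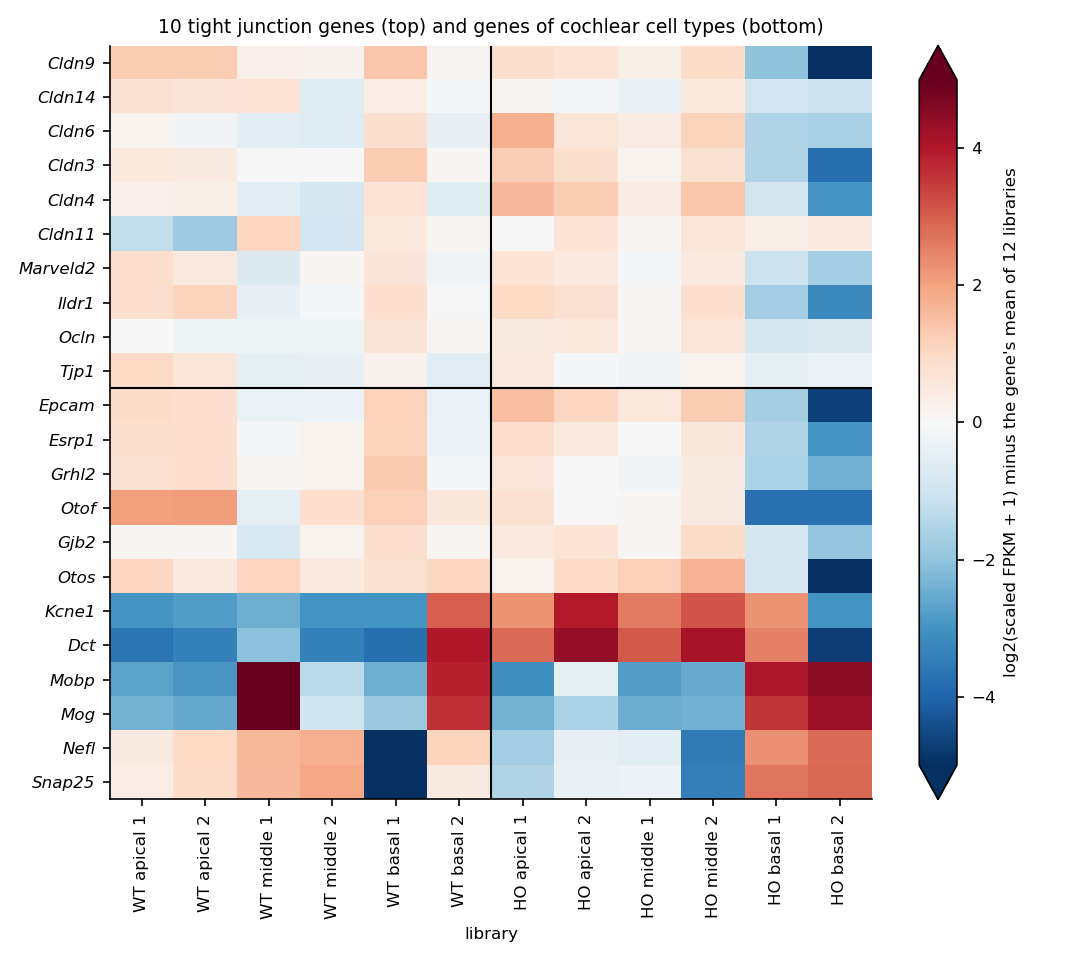
The 10 genes (top) and genes of epithelial cells (*Epcam*, *Esrp1*, *Grhl2*), hair cells (*Otof*), *Gjb2*, fibrocytes (*Otos*), stria (*Kcne1*, *Dct*), oligodendrocytes (*Mobp*, *Mog*) and neurons (*Nefl*, *Snap25*) (bottom) in the 12 libraries; colour is log2(scaled FPKM + 1) minus the mean of the gene over the libraries, cut at 5 on either side. Most junction genes are low (blue) in the 2 homozygous basal libraries, as are *Epcam* and *Otof*, while *Mobp* and *Nefl* are high there.

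Other genes of the tight junction were counted from lists compiled by hand. Of 11 other claudins tested, 1 rose in the apical turn (*Cldn24*) and 1 in the basal turn (*Cldn19*). Of all genes, 0.179% and 4.29% were called in these turns. In the middle turn 0 changed by limma. At an unadjusted p under 0.05, 2 were higher and 2 lower there, beside 4118 of all 16215 genes. *Cldn24* was at 0 and 0.111 scaled FPKM in wild-type apical and 12.8 and 13.8 in homozygous apical libraries, with a log2 difference of 3.76 (adjusted p = 0.00640). *Cldn19*, a claudin of myelinating Schwann cells, was at 8.29 and 4.66 in wild-type basal and 43.8 and 46.6 in homozygous basal libraries, a difference of 2.67 (adjusted p = 0.00317), opposite in sign to *Cldn3*, *Cldn9* and *Ildr1*. In the middle turn it was at 21.04 and 40.1 in wild-type against 5.28 and 6.08 in homozygous libraries, with -2.17 (adjusted p = 0.0170). The 9 Schwann cell markers were all higher in the homozygous basal turn and 4 were called, with sums of 9115 and 14473 against 1454 and 5462, and their part in the level of *Cldn19* was not tested. The most abundant of the list were *Cldn8*, *Cldnd1* and *Cldn19*. *Cldn8* was at 73.6 and 14.9 in wild-type basal and 8.12 and 0.105 in homozygous basal libraries, with -3.44 (adjusted p = 0.0336), and *Cldnd1* was at 21.5 to 40.8 in all 12 libraries.

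Of 4 other angulins and MARVEL proteins, 0 were called by limma in any turn. At an unadjusted p under 0.05, 3 were higher in the apical, 1 higher in the middle and 1 lower in the basal turn. Of all 16215 genes, 2663, 4118 and 5249 reached that level in these turns. *Lsr*, the angulin of most epithelia, was at 22.3 and 18.4 in wild-type basal and 9.74 and 23.3 in homozygous basal libraries and was not below the wild-type range in both, as *Ildr1* was. *Marveld3* was lower in both, at 10.3 and 6.15 in wild-type basal against 2.84 and 2.08 in homozygous basal libraries, with -1.39 (adjusted p = 0.0137). *Ildr2* was at 4.38 and 18.7 in wild-type against 11.2 and 24.2 in homozygous basal libraries, and *Marveld1* at 15.6 and 17.02 against 11.7 and 12.8. Of 13 scaffold and adaptor proteins, 2 fell in the basal turn, *Tjp3* and *Cgn*, which encodes cingulin, with log2 differences of -2.88 (adjusted p = 0.00746) and -2.76 (adjusted p = 0.00857). The apical and middle turns gave 0 by limma. At an unadjusted p under 0.05, 1 was higher and 4 lower in the apical turn, and 1 higher and 1 lower in the middle turn. Of 7 junctional adhesion molecules 0 were called by limma in any turn. At an unadjusted p under 0.05, 3 were higher and 1 lower in the apical turn, and 2 were higher in the middle turn. In the basal turn 1 was higher and 3 were lower at that level. *Jam3*, the most abundant, was at 44.9 and 44.3 in wild-type apical and 80.3 and 112 in homozygous apical libraries. Of 11 polarity genes tested, only *Crb3* was called, which fell in the basal turn with -2.88 (adjusted p = 0.00746). The apical and middle turns gave 0 by limma, with 3 lower at an unadjusted p under 0.05 in each. The 3 most abundant of that list were *Lin7c*, *Prkcz* and *Mpp5*. The median log2 difference in the basal turn was 0.08 for the other claudins, -0.39 for the angulins and MARVEL proteins, -0.33 for the scaffolds, -0.68 for the adhesion molecules and -0.19 for the polarity genes, and that of all genes was -0.0206.

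The genes whose pattern over the 12 libraries was most like each of the 10 were taken as the 3 with the highest Pearson's r of log2(scaled FPKM + 1) among 9464 genes of at least 5 scaled FPKM on average. The r over 12 libraries is given first, and then that over the 10 libraries without the homozygous basal turn. For *Cldn9* these were *Tmem221* (0.997, then 0.956), *Sorl1* (0.986, then 0.868) and *Il17re* (0.986, then 0.884). For *Ildr1* they were *Ap1m2* (0.993, then 0.969), *Fbxo2* (0.991, then 0.976) and *Llgl2* (0.991, then 0.938). *Cldn3* was most like *Prss8* (0.990, then 0.912), *Rab25* (0.987, then 0.876) and *Spint2* (0.987, then 0.908). *Cldn4* was most like *Arhgef19* (0.982, then 0.953), *Mia* (0.975, then 0.935) and *Tbx1* (0.974, then 0.935). *Cldn6* was most like *Fkbp9* (0.969, then 0.945), *Tcea3* (0.966, then 0.932) and *Ephb4* (0.958, then 0.918). *Marveld2* was most like *Cobll1* (0.977, then 0.950), *Lrba* (0.975, then 0.932) and *Fam160a1* (0.973, then 0.930). For *Ocln* the genes were *Rras* (0.985, then 0.967), *Ss18* (0.960, then 0.949) and *Snx9* (0.958, then 0.932). *Tjp1* and *Cldn11*, which did not share the basal pattern, had other partners. *Tjp1* was most like *Itih5* (0.966, then 0.966), *Ptpn13* (0.961, then 0.958) and *Jcad* (0.947, then 0.970). *Cldn11* was most like *Pdlim2* (0.950, then 0.953), *Manbal* (0.911, then 0.907) and *Plod1* (0.908, then 0.909). *Cldn14* was most like *Hdac5* (0.924, then 0.909), *Snx33* (0.911, then 0.795) and *Rhou* (0.910, then 0.808). The points are tissue pieces of mixed make-up, and nothing about shared control follows from these values.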

How the data were processed

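Total RNA of apical, middle and basal cochlear turns from wild-type and homozygous males was sequenced in 12 libraries. According to the methods of the study, the authors trimmed 150 nt paired-end reads with fastp 0.20.0, aligned them to mm10 with STAR 2.7.3a, kept unique reads, counted them with featureCounts 2.0.0 and computed the deposited FPKM with StringTie 2.0. The strand setting is not given in the sources used here. No read counts were used, so depth is unknown, and FPKM summed to 316425 to 408162 per library.

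FPKM were scaled by the median of ratios over 11552 genes (factors 0.917 to 1.06). Genes of at least 1 FPKM in 2 libraries (16215) were tested on log2(scaled FPKM + 1) with limma 3.58.1 in R 4.3.3, with 6 group means in 1 fit, a mean trend and 13 contrasts (6 residual and 2.78 prior degrees of freedom). Tests were two-sided with Benjamini-Hochberg adjustment, and calls needed a fold over 2 with an adjusted p under 0.01. The step was tested on simulated data. Figures were drawn with matplotlib 3.10.9.

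The 10 genes and all lists were chosen with earlier results of these data known. Named genes were the 10 genes, from each pathway list the called members and the 3 of highest mean, from each marker list its total and leading or absent markers, the 3 most alike genes, and *Gjb2*. The values of 1 gene of the scaffold list are not reported here. The study calls the repeats biological and the labels only number them. Whether they came from separate animals is not given, so p-values measure the spread between these libraries. Motif positions are counted back from the annotated start, and a motif within 250 bases was searched with exact letters. Alternatives were the pseudocount, the filter, the scaling, the fit and each library left out.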

Additional observations from a re-analysis of the deposited data

Results flagged for a closer look

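The genotype difference of 2 of the 10 genes was not the same in the basal and the middle turn by a test of the interaction. For *Ildr1* the basal minus middle change was -3.62 (SE 0.67, adjusted p = 0.00708), a call that was lost with a pseudocount of 0.1, with both homozygous libraries below both wild-type ones in the basal turn and above them in the middle turn. For *Ocln* it was -1.79 (SE 0.32, adjusted p = 0.00642), again with both homozygous libraries lower in the basal turn and higher in the middle turn. Both values come from limma with Benjamini-Hochberg adjustment over 16215 genes, of which 8.91% were called. *Epcam* moved the same way, from 52.3 and 53.7 to 95.1 and 158 scaled FPKM in the middle turn and from 146 and 51.8 to 20.4 and 1.65 in the basal turn (wild-type to homozygous), and its part in either difference was not tested.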

How the results depend on the processing

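The call of *Ildr1* in the basal turn and the other counts below depend on how the spread was estimated. Of 690 values recomputed for the 10 genes in 3 turns, 676 kept the direction and 14 did not. Many settings alter the spread or the threshold and leave the difference itself unchanged or nearly so. For *Ildr1* in the basal turn it stayed at -2.91 with library weights, no trend, the replicate block or only the compared libraries. The count of 676 therefore does not measure how steady the directions were. In the basal turn, 1 of 10 genes was called. The count was 0 with no filter on low values, with only the compared libraries, with library weights and with a replicate block, 2 with quantile normalization (*Cldn3* and *Ildr1*) and 6 at an adjusted p under 0.05. With a pseudocount of 0.1 it was 1, *Cldn6* in place of *Ildr1*. Leaving out 1 library gave 0 to 5, with 5 without wild-type basal 2, 3 without homozygous basal 1 and 0 without any other.

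For the basal minus middle interaction, 2 genes were called, against 0 with no filter, only the compared libraries or the replicate block, 7 at an adjusted p under 0.05, and 0 to 4 with 1 library left out (4 without homozygous basal 1, 3 without wild-type basal 2, 1 without homozygous middle 1 and 0 without any other). With a pseudocount of 0.1 the 2 were *Cldn6* and *Ocln*, and the call of *Ildr1* was lost. For the basal minus apical interaction, the count of 0 became 4 at an adjusted p under 0.05 and 0 to 2 with 1 library left out (2 without wild-type basal 2 or homozygous basal 1).

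Between the homozygous basal and apical turns, 4 genes were called, against 2 with a pseudocount of 0.1, 3 with no trend, 5 with a filter at 5 FPKM, 6 with quantile normalization or library weights, 0 with no filter, only the compared libraries or the replicate block, 7 at an adjusted p under 0.05, and 0 to 7 with 1 library left out (7 without either wild-type basal library). Between the homozygous basal and middle turns, 1 was called, against 0 with no filter, only the compared libraries or the replicate block, 2 with a filter at 5 FPKM, quantile normalization or library weights, 7 at an adjusted p under 0.05, and 0 to 5 with 1 library left out. With wild-type middle 1 and homozygous basal 2 both left out, a setting chosen after seeing the data, the counts of these comparisons were 0. The counts of the other 8 comparisons were 0 under all settings, and deposited FPKM without scaling, or no limit on the fold, changed no count.

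Over all genes, 696 calls in the basal turn became 89 with no filter, 0 with only the compared libraries, 22 with library weights, 177 with the replicate block, 1954 at an adjusted p under 0.05 and 4 without both libraries. Unfiltered, 36005 genes were tested. The 1445 calls of the basal minus middle interaction became 296 with no filter, 967 with the replicate block and 0 with only compared libraries. At an adjusted p under 0.05 they became 3214, and the 129 calls of the basal minus apical interaction became 1810. At that threshold the 659 and 756 calls between the homozygous basal and the apical and middle turns became 2012 and 2014.

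The direction turned for 6 of 30 pairs of gene and turn, none of which passed the test. Without wild-type apical 1 and homozygous apical 2, each in turn, *Marveld2* in the apical turn became 0.12 and 0.022, and without wild-type apical 2 and homozygous apical 2 *Ildr1* became 0.018 and 0.0064. In the middle turn *Cldn11* became -0.71 without wild-type middle 2. *Cldn14* there became -0.025 with quantile normalization, and -0.000963, -0.67, -0.45 and -0.0053 without wild-type apical 2, wild-type middle 2, homozygous middle 2 and homozygous basal 2. In the basal turn *Cldn11* became -0.13 without wild-type basal 2, -0.0054 without homozygous basal 2 and -0.00391 without both libraries named above, and *Tjp1* became 0.15 without wild-type basal 1. With 1 library left out, these 6 values ran from -0.27 to 0.12 for *Marveld2* and -0.22 to 0.018 for *Ildr1* in the apical turn, from -0.71 to 1.31 for *Cldn11* and -0.67 to 0.67 for *Cldn14* in the middle turn, and from -0.13 to 0.26 for *Cldn11* and -0.61 to 0.15 for *Tjp1* in the basal turn. The cause of these changes was not tested.

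Samples with the same repeat number deviated together in some pairs of groups and in opposite directions in others. The correlations were -0.43 to 0.45 over 15 pairs of groups, of which 4 were over 0.1. The highest was between the wild-type basal and homozygous apical groups, and the lowest between the wild-type basal and homozygous middle groups. A pairing across different repeat numbers was not tested, so the replicate block does not rest on a known pairing.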

Other observations

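A few claudins outside the 10 genes were high in a single library, chosen after their values were seen. *Cldn13* was at 10.03 scaled FPKM in homozygous middle 1 and at most 0.439 in the other 11 libraries. In that library *Cldn15* was at 1.75, against at most 0.495 elsewhere. The 7 erythroid markers summed to 3535 there and to 4993 in wild-type basal 2, where *Cldn13* was at 0.136. *Cldn1* was at 10.4 in homozygous basal 2 and at most 2.63 in the other 11.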
